A study of Mus musculus with 24 samples.

Results

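Of 24 mouse hippocampus RNA-seq libraries, the 8 with the highest level of Ttr (transthyretin) were set against the 8 with the lowest, and the genes that parted them are described here across the 16022 genes measured in those 16 libraries. Ttr was expressed as CPM (counts per 1000000 counts of the library), and the 24 libraries were ranked by it. Ttr therefore chose the libraries, and every difference between the high and the low set is a description without a test. The 8 libraries between them, which the comparison did not use, served for tests of the other genes. A difference is given on the log2 scale as high minus low, so 1 means a doubling, and comes from a fit with a term for the number that the sample title gives a library (the low-numbered class holds numbers 1 and 2 of every group, number 3 of both control groups and number 4 of KO control).

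The study crossed genotype with stress in mice on a C57BL/6 background, and the tissue was hippocampus dissected by hand on ice. Wild-type mice (WT) and mice without the interleukin-1 receptor 1 in neurons (KO) were either controls or had undergone social defeat by paired fighting, which gave 7 libraries of WT and 6 of KO controls, and 6 of WT and 5 of KO mice after stress. The labels name no promoter or Cre line behind the neuronal knockout and do not say that each library is a separate mouse, so p-values measure the spread between these samples only. Il1r1, the targeted gene, stood at 1.96 to 5.67 CPM in WT and 2.09 to 5.44 CPM in KO control libraries, so its level in whole tissue did not separate the genotypes and gives no check of the labels. Markers of hippocampal neurons were present throughout both sets compared here, with summed levels of 351 to 929 CPM for 10 CA1 and CA3 pyramidal genes and 164 to 390 CPM for 8 dentate granule genes. A library held between 25711872 and 35148198 counts, and 3 counts corresponded to 0.0854 to 0.117 CPM.

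The choroid plexus is a folded epithelium on a core of vessels and stroma that hangs into the brain ventricles and makes cerebrospinal fluid. Its epithelial cells secrete transthyretin, which carries thyroid hormone and retinol-binding protein, and move ions, water, folate and other nutrients from blood into the fluid. It lies along the hippocampal fimbria, next to the ciliated ependyma that lines the ventricle wall, and can be taken along or left behind when a hippocampus is dissected.

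The high set held WT control 5 and 6, WT stress 5, KO control 2 and 3, and KO stress 2, 3 and 4. The low set held WT control 2 and 4, WT stress 1, 2, 3 and 6, and KO control 5 and 6. Each set thus had 3 low-numbered and 5 high-numbered libraries, while 4 low libraries and 1 high library were WT stress and no low library was KO stress. Ttr ranged from 1421 to 2411 CPM with a median of 1726 in the high libraries and from 6.86 to 146 with a median of 17.2 in the low ones, a mean of 1789 ± 373 (SD, n = 8) against 43.8 ± 50.9 (SD, n = 8). At the edges of the sets, WT control 5 stood inside the high set at 1421 CPM and KO stress 1 just outside it at 1370, and WT control 2 stood inside the low set at 146 CPM with WT control 7 just outside at 153. The ranking was a gradient rather than a gap, since the 8 middle libraries filled the range from 153 to 1370 CPM.

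The other 2 markers of choroid plexus epithelium were higher in the high than in the low set. Folr1, the folate receptor that carries folate across this epithelium, ranged from 6.84 to 16.1 CPM (median 11.1) in the high libraries and from 0.129 to 1.02 (median 0.472) in the low ones, a log2 difference of 4.41. Kl, which encodes klotho, ranged from 23.3 to 45.1 CPM (median 34.7) against 4.22 to 11.9 (median 9.79), a log2 difference of 1.97. Neither gene overlapped between the sets. Ranking the libraries by Folr1 kept 6 of the 8 high and 7 of the 8 low libraries, and ranking by Kl kept 7 and 6. In whole tissue, fewer cells of a type and less RNA per cell cannot be told apart, so these values measure choroid plexus transcripts and not the amount of choroid plexus.

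**Figure D1:**
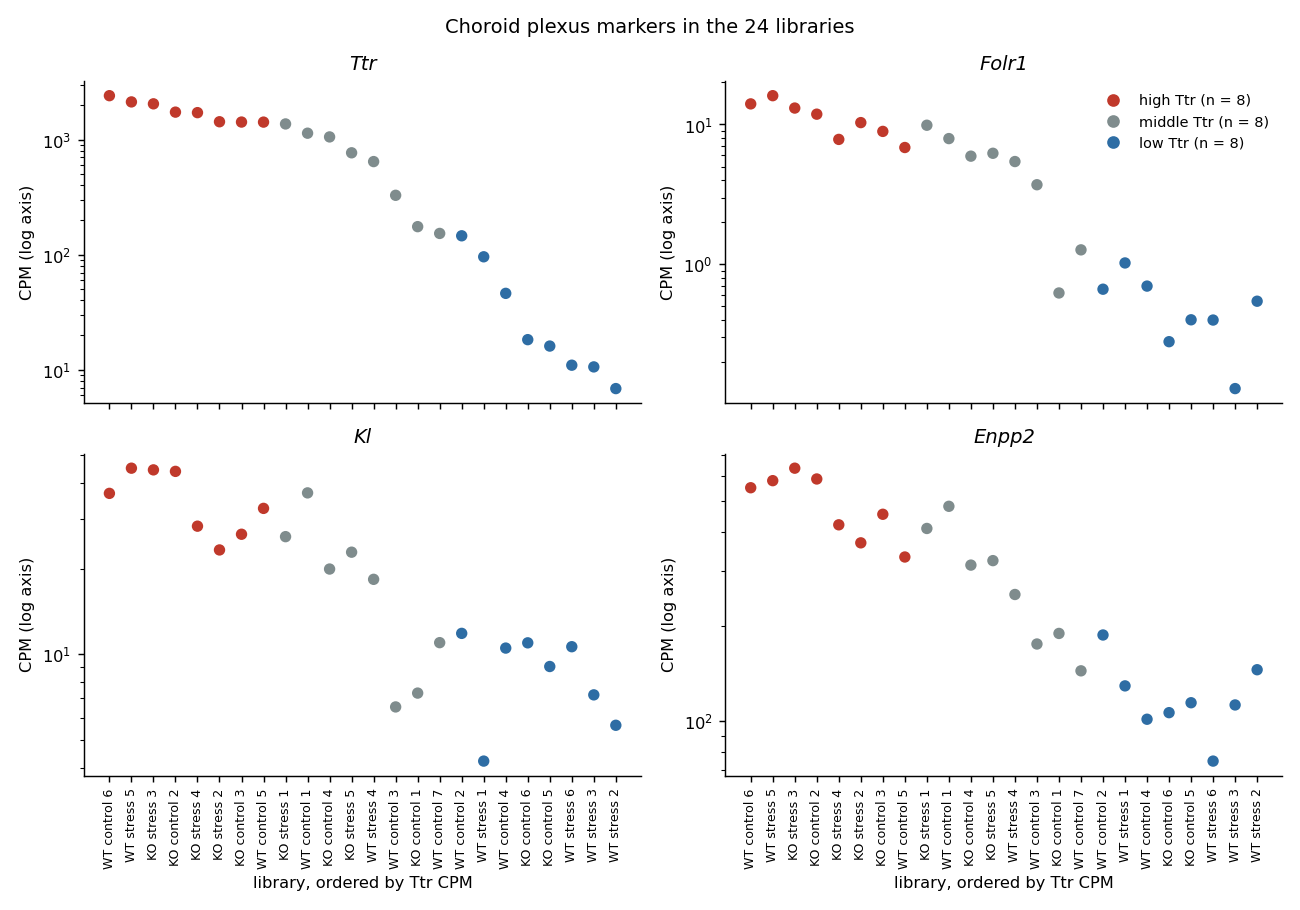
CPM of Ttr, Folr1, Kl and Enpp2 in each of the 24 libraries, on log axes, with the libraries ordered from left to right by Ttr and coloured by set (8 high, 8 middle, 8 low). The high and low libraries do not overlap in Folr1, Kl or Enpp2, but these genes do not fall evenly along the order. Kl, for example, is at 6.54 CPM in the middle library WT control 3 and at 11.9 in the low library WT control 2.

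Across all genes the difference between the sets was narrow and one-sided. In 75 genes every high library lay above every low one and the fitted difference was at least 2-fold, which is 0.468% of the 16022 genes, and 0 genes (0%) met the same rule in the other direction. Without the fold requirement these counts were 85 and 0. The median log2 difference over all genes was -0.00397, and the middle 90% of genes lay between -0.26 and 0.57. Ignoring overlap, 368 genes were at least 2-fold higher in the high libraries and 28 at least 2-fold lower. Of the 75 genes, 30 belonged to 5 lists of choroid plexus genes grouped by role, 4 to a list of ependymal and motile cilia genes and 41 to no list used here. The members and lists were drawn up with earlier results of these data known, and since Ttr chose the libraries the counts of members are read as a description only.

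All 49 listed choroid plexus genes were measured, all 49 differences were above 0, and their median was 2.01. The members differed in how much of their level remained in the low libraries. The low mean was under 10% of the high mean in 11 members, from 10% to 50% in 24, and at least 50% in the other 14. Ttr kept 2.45% of its high mean and Kl 24.97%, whereas Igf2 kept 61.9% and Ezr 86.6%.

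Transporters and channels made up 15 members, of which 9 were set apart by at least 2-fold, with a median log2 difference of 1.69. Slc4a5, a sodium bicarbonate cotransporter, ranged from 5.30 to 11.95 CPM (median 9.48) in the high libraries and from 0 to 1.29 (median 0.288) in the low ones, a log2 difference of 4.54. Kcne2, an accessory subunit of potassium channels, ranged from 5.44 to 12.7 CPM (median 8.55) against 0 to 0.927 (median 0.341), a difference of 4.52. Clic6, a chloride channel family member, ranged from 17.4 to 37.2 CPM (median 27.1) against 0.910 to 4.67 (median 1.62), a difference of 3.90. For each of these 3 genes the lowest high library stood more than 3 times above the highest low one. The potassium channel Kcnj13 differed by 3.29, the water channel Aqp1 by 3.12, the monocarboxylate carrier Slc16a8 by 2.14, the retinoid transporter Abca4 by 1.69 and the osmotically gated channel Trpv4 by 1.61. The nucleoside transporter Slc28a3 was low throughout, at 0.292 to 0.903 CPM in the high and 0 to 0.142 in the low libraries, so its ratio rests on few reads.

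Carriers with a high level in the low libraries differed little. The anion exchanger Slc4a2 ranged from 47.3 to 98.3 CPM (median 73.0) against 28.5 to 63.5 (median 41.3), a log2 difference of 0.74, and its sets overlapped. The chloride cotransporter Slc12a2 differed by 0.43, the carbonic anhydrase Car12 by 0.78, the sulfate carrier Slc13a4 by 0.76 and the monoamine carrier Slc29a4 by 0.25, all with overlap. The copper importer Slc31a1 differed by only 0.41, yet its 8 high libraries, at 22.9 to 35.2 CPM, all lay above the 8 low ones, at 16.3 to 22.6.

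Secreted and shed products made up 15 members, of which 11 were set apart by at least 2-fold, with a median of 2.01. Enpp2, the lysophospholipase autotaxin, ranged from 332 to 637 CPM (median 503) in the high libraries and from 74.7 to 188 (median 114) in the low ones, a log2 difference of 2.01. F5, coagulation factor V, ranged from 5.71 to 12.3 CPM (median 8.56) against 0.204 to 1.26 (median 0.568), a difference of 3.85. Both were free of overlap, but the low mean of Enpp2 was 24.7% of its high mean, against 6.70% for F5. Prr32 differed by 3.75, 1500015O10Rik (the augurin precursor) by 3.22, the Wnt and BMP antagonist Sostdc1 by 2.57, the collagens Col8a2 and Col8a1 by 2.34 and 2.17, the sulfatase Sulf1 by 1.99 and the lipopolysaccharide-binding protein Lbp by 1.90. Wfikkn2 at 1.40 and Mia at 1.12 overlapped between the sets. Igf2, a growth factor made in the choroid plexus and in meninges and vessel walls, ranged from 97.2 to 177 CPM (median 130) against 48.8 to 145 (median 83.8), a difference of 0.67 with overlap, and its binding protein Igfbp2 differed by 0.62.

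Receptors and surface proteins made up 9 members, of which 5 were set apart by at least 2-fold, with a median of 1.24. Tmem72 had a log2 difference of 4.98 but few reads, at 2.87 to 7.40 CPM in the high libraries and 0 to 0.795 in the low ones, where its median of 0.0670 lay under 3 counts. The metalloreductase Steap1 differed by 3.47. Prlr, the prolactin receptor, ranged from 5.53 to 19.3 CPM (median 10.02) against 0.667 to 2.79 (median 1.22), a difference of 2.90. Ace, the angiotensin-converting enzyme, ranged from 36.3 to 57.9 CPM (median 44.2) against 14.7 to 25.9 (median 19.0), a difference of 1.15. Trpm3 at 1.24, the serotonin receptor Htr2c at 0.88, the endocytic receptor Lrp2 at 0.81 and the protease inhibitor Spint2 at 0.38 overlapped.

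Among the 3 transcription factors, Otx2, which specifies choroid plexus epithelium, was the one set apart. It ranged from 4.79 to 12.5 CPM (median 5.66) in the high libraries and from 0.322 to 4.46 (median 0.899) in the low ones, a log2 difference of 2.39. Its low libraries fell into 2 levels. WT control 2 had 4.04, WT stress 1 had 4.46 and WT stress 2 had 4.41 CPM, while the other 5 low libraries had at most 1.12. The same 3 libraries held 42.7, 39.2 and 26.9 CPM of Tcf7l2, a thalamic transcription factor, against at most 16.7 in the other 5 low libraries. These 3 are the low-numbered libraries of the low set and the other 5 the high-numbered ones. Within the low set the 2 levels therefore cannot be told apart from the number class. The high-numbered libraries of the high set also differed in Otx2. WT stress 5 and KO stress 3, at 111 and 116 CPM of Tcf7l2, had 407 and 350 Otx2 counts. WT control 6, KO stress 4 and WT control 5, at 9.69, 9.57 and 5.78 CPM of Tcf7l2, had 188, 146 and 135. Whether Otx2 follows Tcf7l2 was not tested. Lmx1a at 2.73 and Msx1 at 0.99 overlapped.

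Junction and cytoskeleton genes made up 7 members, of which 4 were set apart. Cldn2, the pore-forming claudin of leaky epithelia, ranged from 4.599 to 9.78 CPM (median 7.68) against 0.136 to 0.728 (median 0.409), a log2 difference of 4.13. The keratins Krt8 and Krt18 both differed by 3.06 and Calml4 by 2.60. Cldn1 at 0.56, Cab39l at 0.48 and Ezr, which is made in many cell types, at 0.18 overlapped.

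**Figure D2:**
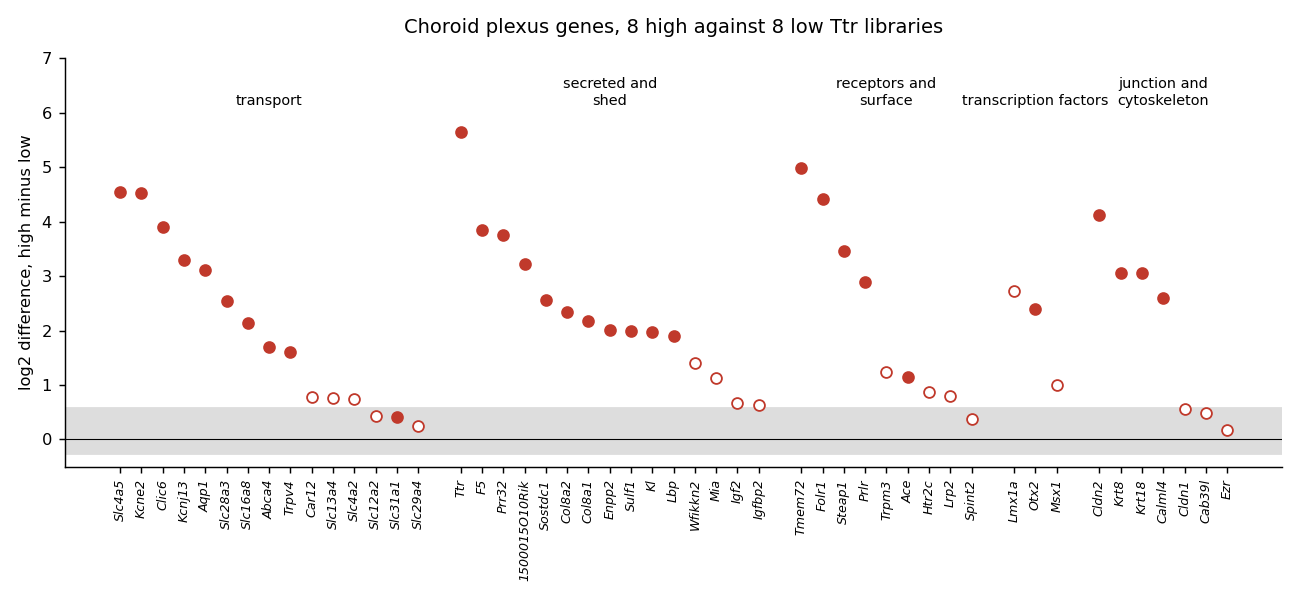
Fitted log2 difference, high minus low Ttr libraries (8 against 8), for the 49 listed choroid plexus genes, grouped by role. Filled points are genes without overlap between the sets, open points overlap, and the grey band spans the 5th to the 95th percentile of all 16022 genes. Differences run from 0.18 for Ezr to 5.65 for Ttr.

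The promoters of the set-apart genes were searched for 2 short motifs, the Otx core TAATCC (reverse GGATTA) and the RFX half-site GTTGCC (reverse GGCAAC), on both strands of the 250 bases before the start. RefSeq windows (GRCm38.p6) were matched for 51 of the 75 genes. TAATCC was present in 10 of the 51 (19.6%), against 6.23% of the 11870 measured genes with a window and 6.25% of all 32851 windows. GTTGCC was present in 12 of the 51 (23.5%), against 12.8% and 10.4%. The 10 genes with TAATCC were 2410004P03Rik, Abca4, Ace, Lrrc23, Mlf1, Otx2 itself, Pla2g5, Ppp1r32, Rbm47 and Wdr63, and the genes among them that are in no list were chosen for naming after their values were seen. A match describes letters in a window and not a bound site. The windows of Abca4 (chr3:122044210-122044459, + strand) and Ace (chr11:105967698-105967947, + strand) are shown because both are choroid plexus members that also passed the test without a stress term in the middle libraries below, with the motif in capitals.
Abca4: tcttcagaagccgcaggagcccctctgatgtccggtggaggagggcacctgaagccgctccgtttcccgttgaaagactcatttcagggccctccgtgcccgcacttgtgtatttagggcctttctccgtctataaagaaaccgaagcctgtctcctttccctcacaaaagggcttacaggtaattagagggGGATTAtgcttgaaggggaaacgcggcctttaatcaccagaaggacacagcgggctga
Ace: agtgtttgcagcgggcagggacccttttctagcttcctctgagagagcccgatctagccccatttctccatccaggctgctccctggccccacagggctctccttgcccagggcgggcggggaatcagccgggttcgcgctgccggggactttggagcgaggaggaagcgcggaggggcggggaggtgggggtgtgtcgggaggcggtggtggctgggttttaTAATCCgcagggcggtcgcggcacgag
In Abca4 the capitals begin 58 bases before the start and in Ace 27 bases before it.

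Genes of motile cilia, which drive fluid along the ventricle wall, were higher in the high libraries by smaller amounts. Of 21 listed genes 20 were measured, all 20 had a difference above 0, their median was 1.03 and 4 were set apart by at least 2-fold. Rsph1, a radial spoke protein, ranged from 8.48 to 12.4 CPM (median 9.65) in the high libraries and from 2.70 to 5.96 (median 4.36) in the low ones, a log2 difference of 1.11. Pifo differed by 2.40, Ak7 by 1.48 and Ccdc153 by 1.17, also without overlap. Foxj1, the regulator of motile cilia, ranged from 14.8 to 37.5 CPM (median 22.1) against 7.73 to 14.9 (median 11.6), a difference of 0.97, with a narrow overlap. Other cilia genes such as Ccdc39 (0.02) and Dnah5 (0.20) showed nearly the same level in both sets. The low mean of Foxj1 was 49.8% of the high mean, against 2.45% for Ttr.

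Markers of the other components of choroid plexus and its surroundings differed little in their medians. Over 13 endothelial genes the median log2 difference was -0.02 with 4 above 0 and 9 below, and over 4 genes of fenestrated endothelium, the vessel type of the choroid plexus core, it was -0.03. Plvap, which forms the diaphragms of such vessels, ranged from 12.9 to 17.6 CPM in the high and from 13.04 to 17.2 in the low libraries. Over 14 meningeal and stromal fibroblast genes the median was 0.11 with 11 above 0 and 3 below, and over 10 perivascular and stromal macrophage genes it was 0.18 with 7 above 0 and 3 below. None of these 4 lists had a member set apart. Medians were -0.03 for red blood cell genes, -0.07 for microglia, -0.02 for astrocytes, -0.14 for monocytes and neutrophils, 0.08 for neuroblasts and -0.06 for nuclear and precursor RNAs, again with 0 members set apart.

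Among hippocampal neurons, the median was -0.28 over 10 CA1 and CA3 pyramidal genes, of which 8 were below 0, -0.11 over 8 dentate granule genes and -0.13 over 8 GABAergic interneuron genes. Spink8 at -0.56 and Vip at -0.58 were the lowest of these, and both overlapped. All 8 oligodendrocyte genes were above 0 with a median of 0.43, with Mobp at 0.50 and overlap in every member.

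Transcripts of neighbouring brain regions differed by more, and unevenly between libraries. Pmch, a lateral hypothalamic neuropeptide gene, stood at 45.9 to 69.2 CPM in 5 high libraries (KO control 2 and 3, WT stress 5, KO stress 2 and 3) and at 0.0354 to 0.110 in the other 3 (WT control 5 and 6, KO stress 4), while no low library exceeded 0.646. All 8 hypothalamic genes were above 0 with a median log2 difference of 4.30, and none was set apart because of those 3 libraries. All 14 thalamus and habenula genes were above 0 with a median of 1.22, led by Pou4f1 at 2.35 and Prkcd at 2.00, and the 7 measured striatal genes had a median of 0.72, with Drd2 at 1.64. Prkcd ranged from 27.1 to 235 CPM in the high libraries and from 13.9 to 57.0 in the low ones. Pmch and Tcf7l2 were thus high in 5 of the 8 high libraries only, with Tcf7l2 at 44.6 to 116 CPM against 5.78 to 9.69 in the other 3. Ttr did not separate these 5 libraries, at 1422 to 2128 CPM, from the other 3, at 1421 to 2411.

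The choroid plexus difference was of nearly the same size in the 3 high libraries with little Pmch. They were set against the same 8 low libraries, a comparison added after seeing the data. All 3 were high-numbered, so with the class term the fitted differences rested on the 5 high-numbered low libraries. Only the overlap rule used all 8 low ones. In this comparison 76 of 16047 genes (0.474%) were set apart upward and 10 downward (0.0623%), and 64 of the 76 were among the 75 above. Non-overlap is easier to reach with 3 high libraries than with 8, so the counts of 76 and 75 do not compare directly. The median over the choroid plexus genes was 1.95 with 30 of 49 set apart, against 2.01 with 30, and over the cilia genes it was 0.78 against 1.03. The hypothalamic median was 0.67, the thalamic one -0.02, the striatal one -0.06 and the oligodendrocyte one 0.12. Folr1 stood at 6.84 to 14.04 CPM in the 3 libraries and at 8.92 to 16.1 in the other 5.

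**Figure D3:**
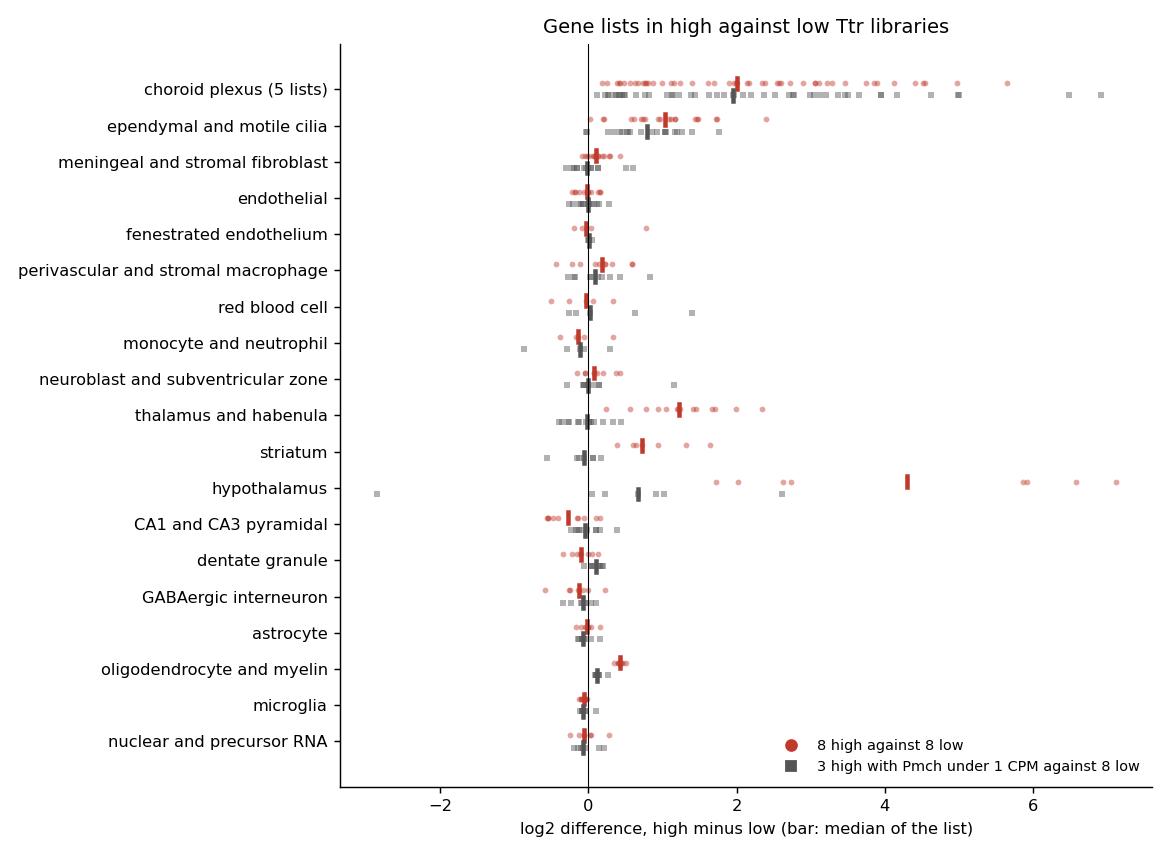
Log2 difference, high minus low, of each measured gene in the lists, with a bar at the median of the list. Red points are the 8 high against the 8 low libraries, and grey squares are the 3 high libraries with Pmch under 1 CPM against the same 8 low ones. All 3 are high-numbered, so with the class term the squares rest on the 5 high-numbered low libraries. The choroid plexus median is 2.01 and 1.95, while the hypothalamic median is 4.30 and 0.67 and the thalamic one 1.22 and -0.02.

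By the naming rule, the set-apart genes with the largest differences and at least 1 CPM were Ttr, Tmem72, Slc4a5, Kcne2, Folr1, Cdh3, Cldn2, Clic6, F5, Prr32, Steap1, Kcnj13, 1500015O10Rik, Aqp1 and Krt8, of which Cdh3 was the one outside the lists. Cdh3, which encodes P-cadherin, stood at 0.284 to 1.93 CPM in the high and 0 to 0.204 in the low libraries, most of them under 3 counts. The genes with the smallest differences among those without overlap were Polr1a (0.23), Slc31a1 (0.41), Cpxm2, Zfp185, Frem1, Cdkn1c, Eno4, Wdr52, Wdr96 and Ccdc108. Polr1a, the large subunit of RNA polymerase I, stood at 30.6 to 32.8 CPM against 23.4 to 27.8, and Cdkn1c, a cell cycle inhibitor, at 11.9 to 20.6 against 6.26 to 10.8. The following unlisted genes, among the 41, were chosen for naming after their values were seen. They included the tight junction genes Cldn9 (3.62) and Tjp3 (1.62), the retinol dehydrogenase Rdh5 (1.92), the collagens Col4a4 (2.15) and Col9a3 (1.31), the glucose transporter Slc2a12 (1.48), and the axonemal dynein genes Dnali1 (1.72) and Dnah6 (1.44). Col9a3 stood at 33.0 to 54.6 CPM in the high libraries and 13.8 to 19.9 in the low ones.

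In the 8 middle libraries, each gene was tested for a slope on log2 Ttr, with the number class as a term (edgeR quasi-likelihood test, Benjamini-Hochberg adjustment over 16301 genes, 5 residual degrees of freedom). A slope of 1 means that the gene doubles when Ttr doubles. The slope was above 0 in 19 genes (0.117%) and below 0 in 0 genes (0%), and 1837 genes had an unadjusted p under 0.05 in either direction. Of 47 choroid plexus members tested, 16 passed, and all 47 slopes were above 0 with a median of 0.52, against a median of 0.00766 over all genes. Slc4a5 rose from 0.806 to 7.78 CPM across the middle libraries, with a slope of 1.07 ± 0.094 (SE, adjusted p = 0.00311), and Clic6 had a slope of 0.95 ± 0.085 (SE, adjusted p = 0.00311). Folr1 rose from 0.622 to 9.88 CPM with a slope of 0.99 ± 0.14 (SE, adjusted p = 0.0320). These slopes lay near 1, so the genes changed about in step with Ttr. Stress moved with Ttr among these libraries: the 3 stress libraries (KO stress 1 at 1370 CPM, KO stress 5 at 769 and WT stress 4 at 645) were among the 5 with the most Ttr, and the 3 with the least (WT control 3 at 328, KO control 1 at 175 and WT control 7 at 153) were all controls. With stress as a further term, a fit added after seeing the data that leaves 4 residual degrees of freedom, 0 genes passed and 755 had an unadjusted p under 0.05. In that fit the slope of Slc4a5 was 1.05 (adjusted p = 0.102), that of Clic6 1.04 (adjusted p = 0.0505) and that of Folr1 0.99 (adjusted p = 0.618), and 43 of the 47 choroid plexus slopes were above 0 with a median of 0.48. With log2 Folr1 in place of log2 Ttr as the predictor, 0 genes passed as well and 1446 had an unadjusted p under 0.05.

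Enpp2 and Ace had slopes under 1. Enpp2 had a slope of 0.44 ± 0.063 (SE, adjusted p = 0.0320) and Ace of 0.34 ± 0.046 (SE, adjusted p = 0.0236), and with the stress term the slopes were 0.46 (adjusted p = 0.528) and 0.32 (adjusted p = 0.618). Kl had a slope of 0.65 ± 0.12 (SE) and did not pass (adjusted p = 0.259). Kcne2 (1.15), F5 (1.07), 1500015O10Rik (0.75), Kcnj13 (0.84), Abca4 (0.74), Aqp1 (0.91), Tmem72 (1.59), Lbp (0.54), Col8a2 (0.64), Cldn2 (1.01) and Sostdc1 (0.66) also passed. None of the 20 cilia genes passed, with a median slope of 0.26, and Foxj1 had a slope of 0.15 ± 0.081 (SE). No member of the endothelial, fibroblast, macrophage, thalamic or hypothalamic lists passed either, at median slopes of 0.04, -0.02, -0.07, 0.49 and 1.02. The highest median slope of any list was 1.27, over 8 monocyte and neutrophil genes, all 8 with slopes above 0 and none passing. The 5 red blood cell genes tested also had slopes above 0, with a median of 0.31 and none passing. With the stress term these medians were 0.44 (5 of 8 above 0) and -0.04 (1 of 5 above 0), 0.91 for the hypothalamic and 0.44 for the thalamic list, and -0.14 for the fibroblast and -0.08 for the macrophage list.

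Of the 19 genes that passed, 17 were among the 75 set apart, which is 89.5% of the 19 and 22.7% of the 75. The 3 outside the lists were Cthrc1, Chrnb4 and Ccdc135. Chrnb4, a nicotinic receptor subunit gene, had a log2 difference of 2.21 with overlap between the high and low sets, and Cthrc1 differed by 0.01. Of the 75, 72 were tested in the middle libraries and 70 had a slope above 0 in the fit without the stress term. Of all 16022 genes of the high against low comparison, 15913 were tested there and 8415 had a slope above 0. The number of calls rested on single libraries. It was 3 without KO control 1, 5 without KO stress 1, WT control 1 or WT control 7, 6 without WT control 3 and 43 without WT stress 4. Slc4a5 passed with each of the 8 libraries left out in turn. Clic6 did not pass without KO control 1 (adjusted p = 0.0607). Folr1 did not pass without KO control 1 or 4, KO stress 1, or WT control 1 or 7, with slopes of 0.78 to 1.01 in those 5 fits. Enpp2 and Ace did not pass without KO control 1, KO stress 1, or WT control 1, 3 or 7, with adjusted p of 0.0718 to 0.186 for Enpp2 and 0.0788 to 0.323 for Ace. Chrnb4 did not pass without any 1 of these 5 or KO control 4. Pmch exceeded 1 CPM in 4 middle libraries, the 4 with the highest Ttr, and its part in the slopes was not tested.

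**Figure D4:**
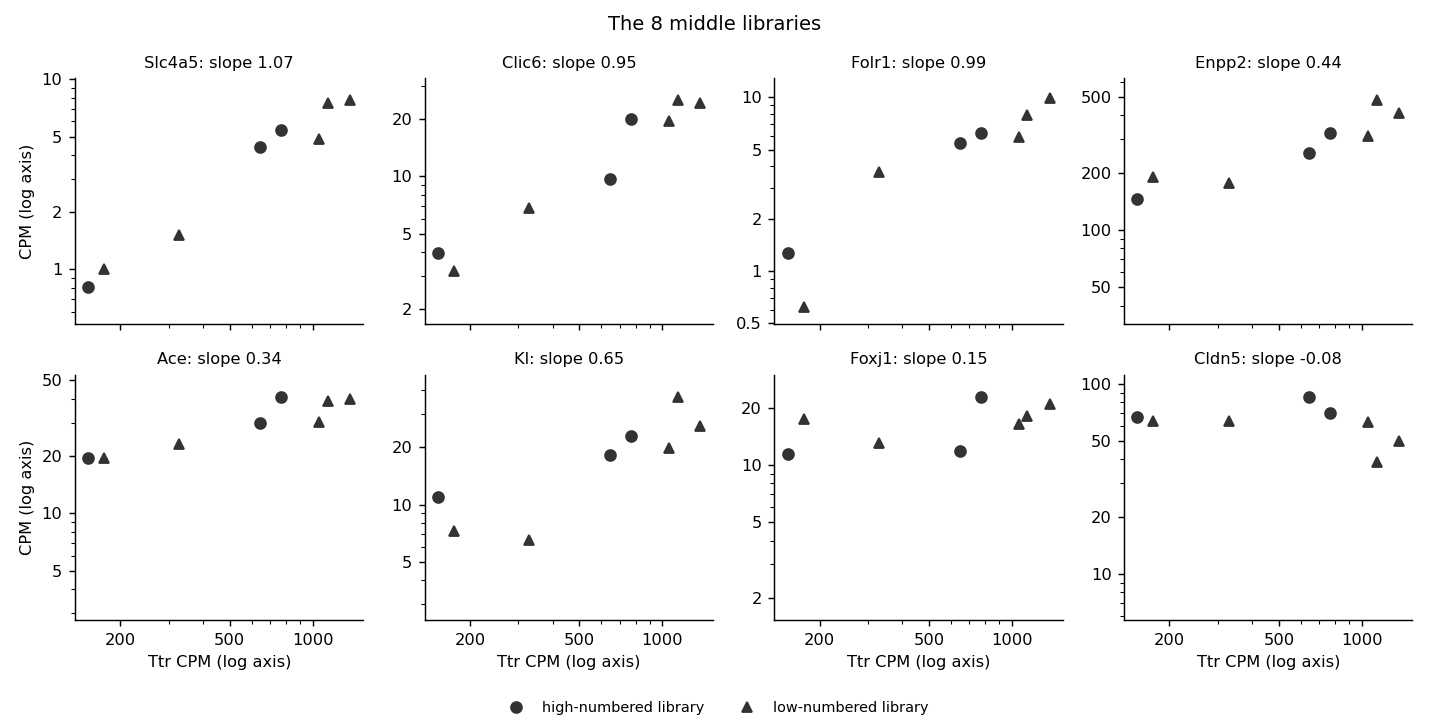
CPM of 8 genes against CPM of Ttr in the 8 middle libraries, both on log axes, with circles for high-numbered and triangles for low-numbered libraries and the fitted slope above each panel. Slc4a5, Clic6 and Folr1 climb with slopes of 1.07, 0.95 and 0.99, Enpp2 and Ace with 0.44 and 0.34, and the endothelial gene Cldn5 has a slope of -0.08.

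The study's groups were not evenly spread over the Ttr range. Ttr was 806 ± 888 CPM (SD, n = 7) in WT controls, 483 ± 843 (SD, n = 6) after stress in WT mice, 737 ± 764 (SD, n = 6) in KO control libraries, and it was 1467 ± 474 (SD, n = 5) after stress in KO mice. The medians, in the same order, were 328, 53.4, 616 and 1431 CPM, and every group overlapped every other. KO stress libraries had the highest median and the narrowest range, 769 to 2048 CPM, while WT stress spanned 6.86 to 2128. In exact two-sided permutation tests of log2(CPM + 0.5), KO stress lay above WT stress by 4.31 (p = 0.0346, adjusted p = 0.139 over 4 comparisons). The exact permutation tests gave -2.46 for WT stress against WT control (p = 0.143, adjusted p = 0.190), 2.61 for KO stress against KO control (p = 0.119, adjusted p = 0.190) and -0.77 for KO control against WT control (p = 0.590, adjusted p = 0.590). No comparison passed after adjustment, except that KO stress lay above WT stress by 5.29 (exact permutation test, adjusted p = 0.0317) when WT stress 5 was left out. Within the low-numbered libraries the 4 differences, in that order, were 5.72, -3.83, 0.77 and 1.12, and within the high-numbered ones 3.60, -1.78, 6.30 and -4.49, so the sign of KO control against WT control turned with the class.

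Choroid plexus genes took opposite signs in the 2 genotypes when stress was compared with control. In a fit of 4 group means over all 24 libraries, 44 of the 49 members lay below 0 in WT mice, with a median log2 fold change of -0.36, and 48 of 49 lay above 0 in KO mice, with a median of 0.51. None passed (edgeR quasi-likelihood test, smallest adjusted p of 0.9998 in WT and 0.988 in KO). All 49 differences between the stress effects of KO and WT mice were above 0, with a median of 0.91, and none passed. The members vary together with Ttr and were listed with earlier results known, so these sign counts are not 49 separate observations. The share of all genes with each sign was not counted. With log2 Ttr as a term, the medians over the 48 members other than Ttr were 0.20 in WT, 0.05 in KO and -0.16 for the difference. In that fit 41 of the 48 lay above 0 in WT and 33 in KO, and 37 lay below 0 for the difference. The median SE fell from 0.51 to 0.29 in WT and from 0.55 to 0.31 in KO. Folr1, for example, went from -0.41 ± 0.94 (SE) to 0.48 ± 0.31 (SE) in WT mice and from 0.98 ± 1.01 (SE) to 0.22 ± 0.30 (SE) in KO mice. The SE was smaller with the term in 45 of the 48 members in each genotype. These members vary with Ttr in the same libraries, so the smaller SE follows from their choice and is a description only.

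The calls for stress in WT mice were mostly shared by the fits with and without Ttr. In WT mice 24 genes were higher and 0 lower with the term (0.147% and 0% of 16312), against 22 and 0 without it (0.135% and 0% of 16313), and 20 were called in both. Chil3, Lyz2, Pirb and Tgm2 were gained, with adjusted p of 0.0393, 0.0495, 0.0435 and 0.0424. Ifitm1 (adjusted p = 0.0542) and Tmem252 (adjusted p = 0.0916) were lost. WT stress 5, the WT stress library in the high set, carried much of the count, which was 3 without it. The count was 10 without WT control 2 or 4, and 15 without WT control 1, 5 or 7. Lcn2, an iron-binding acute-phase protein, was higher by 5.21 ± 0.80 (SE, adjusted p = 0.00469) with the term and 5.15 ± 0.75 (SE, adjusted p = 0.00180) without it, though it did not pass without WT stress 5 (adjusted p = 0.0886). Alas2, the erythroid enzyme of heme synthesis, was higher by 2.49 ± 0.29 (SE, adjusted p = 0.000348) and 2.504 ± 0.28 (SE, adjusted p = 9.6e-05). The targeted receptor gene Il1r1 differed by 0.97 ± 0.25 (SE, adjusted p = 0.191) with the term and did not pass.

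In KO mice 0 genes passed in either direction with the term (0%), with 359 at an unadjusted p under 0.05, against 1 without it (0.00613%), with 648. That gene was Alas2, at 1.92 ± 0.33 (SE, adjusted p = 0.129) with the term and 1.90 ± 0.30 (SE, adjusted p = 0.0293) without it, so the size stayed and the adjusted p passed the threshold in the fit without it. With the term it passed without KO stress 2 (adjusted p = 0.0334) or WT stress 5 (adjusted p = 0.0196). The difference between the stress effects of KO and WT mice passed in 0 genes with and without the term (edgeR), with 242 and 384 genes at an unadjusted p under 0.05.

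**Figure D5:**
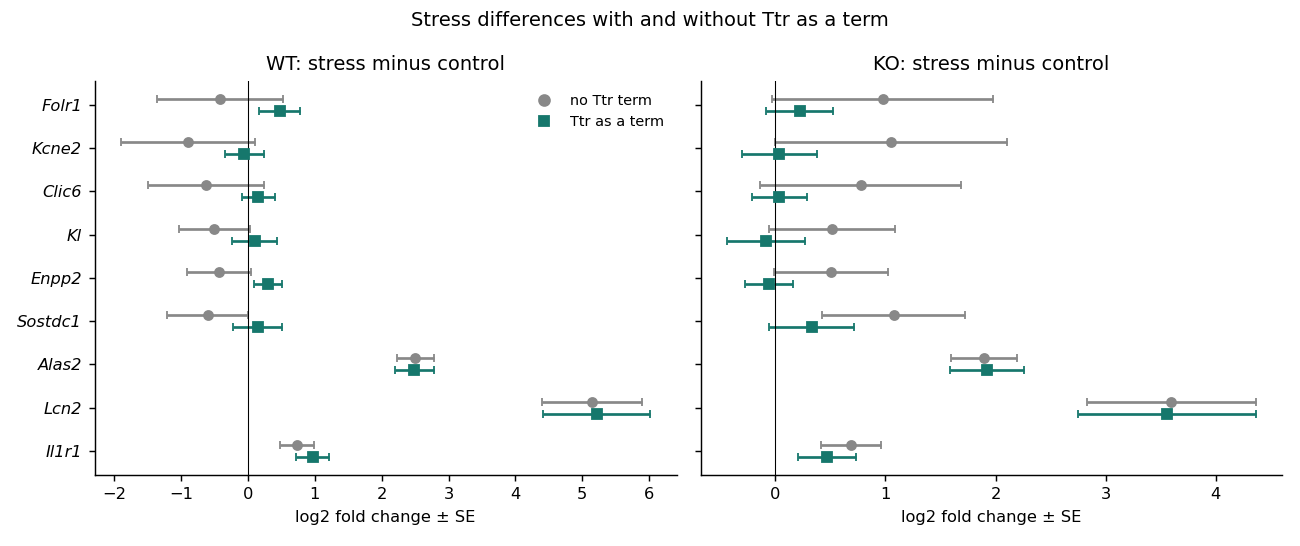
Log2 fold change of stress against control ± SE in WT mice (left) and KO mice (right), from fits without (grey circles) and with (green squares) log2 Ttr as a term, for 6 choroid plexus genes and for Alas2, Lcn2 and Il1r1. The error bars of the choroid plexus genes shrink with the term, as for Folr1 in WT mice from 0.94 to 0.31, while the values of Alas2 and Lcn2 keep their size.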

How the data were processed

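Hippocampal RNA of 24 libraries was analysed from the table of whole-number read counts per gene symbol that the authors deposited, without normalization. The tools STAR and DESeq2 and the build mm10 appear in the submitters' processing notes, with no version or role. What counted the reads, on which annotation and with what strand setting, is not given in the sources used here. Across libraries 70.9% to 75.8% of counts from 1 to 10 were even. Mates of a pair may have been counted separately, which was not tested. The table lists 24062 genes, of which 3153 have no count. Any 2 libraries differed by more than sampling noise (smallest mean chi-square per gene 5.73). The deposited normalized values and comparison table were not used here.

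CPM is the count over the column sum. Differences, slopes and stress effects were fitted in edgeR 4.0.16 (R 4.3.3) with filterByExpr (minimum count 10), TMM factors of 0.969 to 1.07 and robust quasi-likelihood fits, with Benjamini-Hochberg adjustment at 0.05. The SE is the log2 value over the root of the F statistic. A gene was counted as set apart when the 8 and 8 libraries did not overlap in CPM and the fitted difference was at least 2-fold. Ttr across the study's groups was tested with exact permutation. The high against low fit, the middle slope and the WT stress fit with the Ttr term were tested on simulated counts. DESeq2 1.42.0 and other normalizations, filters, terms (a stress term among the middle libraries), rankings and left-out libraries were tried. Named by rule were, among genes without overlap whose high or low mean reached 1 CPM, the 15 largest and 10 smallest differences, with all choroid plexus members, up to 4 per other list, and up to 10 calls changed by the Ttr term. Members, lists and tests were chosen with earlier results of these data known. Promoter sequences are from RefSeq, GRCm38.p6. Count intervals and floors cover counting error only.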

Additional observations from a re-analysis of the deposited data

Results flagged for a closer look

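In 43 groups of 4 to 10 libraries, taken over 13 genes, 5 had 1 library farther from the rest than Dixon's 95% limit allows, and chance alone flags about 1 in 20 such groups. Among the low libraries, WT control 2 stood highest for Clic6 at 4.67 CPM (next 2.23) and for Slc4a5 at 1.29 CPM (next 0.533), and it was also the low library with the highest Ttr, at 146 CPM. Among the low libraries, WT stress 2 stood at 28.8 CPM for Slc6a4 (next 5.63) and at 41.9 CPM for Tph2 (next 12.5), both markers of serotonin neurons, whose cell bodies lie in the raphe and not in the hippocampus. WT stress 2 was not alone in this among all libraries. It had 847 counts of Slc6a4 and 1234 of Tph2. The middle libraries KO control 1 (660 and 981) and KO stress 5 (578 and 631) also held both genes but were not flagged. Among the WT stress libraries, WT stress 5 had 2128 CPM of Ttr, and the next had 645.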

How the results depend on the processing

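Of the genes set apart between high and low libraries, the count of 75 stayed within 1.5 times (55 to 105) under RLE factors, other filters, other terms, DESeq2 fold changes, ranking by Folr1 (65 shared) or by Kl (61 shared), sets within number classes, and each library left out (73 to 92). It was 132 (131 higher, 1 lower) with 6 against 6 libraries. Fewer libraries then have to stay apart, and the sets also differed more, with Folr1 at 4.85 against 4.41. Which of these raised the count was not tested. The log2 difference of Tcf7l2, 1.67 over all 8, was -0.0373 without the 5 high libraries with Pmch, a fit added after seeing the data. With the class term that value set the 3 high libraries left, all high-numbered, against the 5 high-numbered low ones. The 3 low-numbered low libraries, at 26.9 to 42.7 CPM of Tcf7l2, did not bear on it. In the middle libraries the count of 19 was 133 (122 rising, 11 falling) with DESeq2, 0 with Folr1 as the predictor, 0 with stress as a further term (added after seeing the data), and 3 to 43 with 1 library left out; the cause was not tested. In WT stress the count of 24 was 52 (50 higher, 2 lower) with DESeq2 and 3 to 32 with 1 library left out. In KO stress the count of 0 became 1 without the Ttr term, 2 with DESeq2 and 0 to 2 with 1 library left out. The interaction gave 0 genes in every fit run. KO control against WT control in Ttr was 1.12 within the low-numbered libraries, opposite in sign to the -0.77 over all. KO stress against WT stress ranged from 3.65 to 5.29 with 1 library left out. Deviations from the group mean in same-numbered libraries of different groups had r from -0.46 to 0.54 (33 pairs, 17 over 0.1). Libraries of unlike number were not compared, so these values cannot decide whether the numbers pair the libraries. With the replicate number as a block the counts were 81 set apart, 21 in WT stress, 1 in KO stress and 0 for the interaction. Genes with fewer than 3 counts in the low libraries have differences that depend on the prior count of the fit.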
